A study of Mus musculus with 72 samples.

Results

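Krt20, the gene of keratin 20, was read on the array by a single probe, ILMN_2907285, 1 of 45281 probes listed and 1 of 19057 genes with a symbol in the platform annotation. The probe was chosen by its measured values in the kidney: it stood far higher in septic kidneys than in sham kidneys and differed widely between septic animals. Those kidney values are therefore given as a description, with no test between arms. They enter tests only in the correlations with other organs. The platform annotation pairs the probe with Krt20 and pairs no other probe with that gene. The row is one of 22504 whose columns follow the table's header, so each of its 72 values could be read under the sample name above it.

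Keratins are the intermediate filament proteins of epithelial cells and assemble as pairs of an acidic type I and a basic type II chain. Keratin 20 is a type I keratin known from the lining of the gut, the surface cells of the urinary tract and the Merkel cells of the skin. In the mouse kidney it is also known as a transcript that appears in injured tubule cells, which makes it a companion of Havcr1, the kidney injury molecule of the proximal tubule.

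All animals were female C57Bl/6J mice, and organs were taken 28 hours after surgery. Sham mice underwent the operation without cecal injury and were given saline. CLP mice had the cecum tied off and perforated, a model of abdominal sepsis, and were given saline. MSC mice had the same injury and were given mesenchymal stem cells, cultured stromal cells of male C57Bl/6J mice used at passages 8 to 11. Saline or cells were infused in 100 µL, 6 hours after surgery. The 72 arrays comprise liver, lung, kidney and heart of 15 mice, 5 per arm, and 12 spleens, 4 per arm, whose labels do not tie them to those mice. The design text gives 4 animals per group.

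The values are taken as log2 intensities. The 12 spleens were normalised apart from the 60 other arrays, so spleen levels are not set against the others. A floor of 6 log2 was used to decide whether a probe could be tested in an organ. The organs carried their own markers: Umod, the uromodulin of the loop of Henle, stood at 14.8 to 15.5 in the 15 kidneys and at no more than 5.78 in liver, lung and heart. For the spleens, 7 of 12 samples hold another column in the second deposited table than the header gives, and 2 of them change arm, so spleen results are given by the header and with the second table beside them.

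The stretch just upstream of the gene is shown because its transcript is the one measured by the probe. RefSeq places it on chromosome 11, minus strand (GRCm38.p6, chr11:99438154-99438403), with Krt12 and Krt23, other type I keratins, as the nearest protein-coding neighbours. The 250 bases before the annotated start read as follows from 5′ to 3′, with TATAAA and GGAATG (either strand) in capitals.
Krt20 upstream: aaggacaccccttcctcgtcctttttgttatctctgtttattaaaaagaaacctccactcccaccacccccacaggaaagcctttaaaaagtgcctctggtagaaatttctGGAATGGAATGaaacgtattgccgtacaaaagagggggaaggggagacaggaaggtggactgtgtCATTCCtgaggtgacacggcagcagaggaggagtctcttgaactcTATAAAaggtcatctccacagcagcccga
The TATAAA match begins 29 bases before the start, and 12.4% of 32851 promoter windows of this length hold that motif on either strand. GGAATG, the core letters bound by TEAD factors, occurs 3 times, beginning 139, 134 and 74 bases before the start, and the first 2 matches share a G. At least 1 match was held by 12.6% of the windows, and at least 3 by 0.0913%. The letters TGANTCA (held by 6.75% of windows), TTCNNNGAA (7.02%) and CCAAT (33.8%) were also searched on both strands and are not in this window. These motifs were chosen after the sequence had been read, and a match is a description of letters only.

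In sham kidneys Krt20 read 6.32 in mouse 21S, 6.00 in 22S, 5.33 in 76S, 5.84 in 77S and 6.19 in 78S. These 5 values lie around the floor, with a mean of 5.94 ± 0.39 log2 (SD, n = 5), and 2 of them are below it. In CLP kidneys the probe read 13.64 in mouse 24C, 11.29 in 34C, 13.66 in 35C, 12.60 in 37C and 7.08 in 107C. The first 4 thus stood at least 4.97 log2 above every sham kidney, while 107C stood 0.76 log2 above the highest sham kidney. In MSC kidneys it read 12.61 in mouse 16M, 10.06 in 44M, 10.33 in 61M, 7.86 in 101M and 7.17 in 100M. Every one of the 10 injured kidneys lay above every sham kidney. The MSC range lay within the CLP range, but only through 107C: 16M alone of the MSC kidneys exceeded the next lowest CLP kidney (11.29). The lowest injured mice, 107C, 100M and 101M, carry label numbers of 100 or more. Other injured mice carry 16 to 61 and read 10.06 or more, and no sham mouse has a number of 100 or more. The spread between animals and the gap between the injured arms cannot be told apart from that number series, which was not tested.

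**Figure D1:**
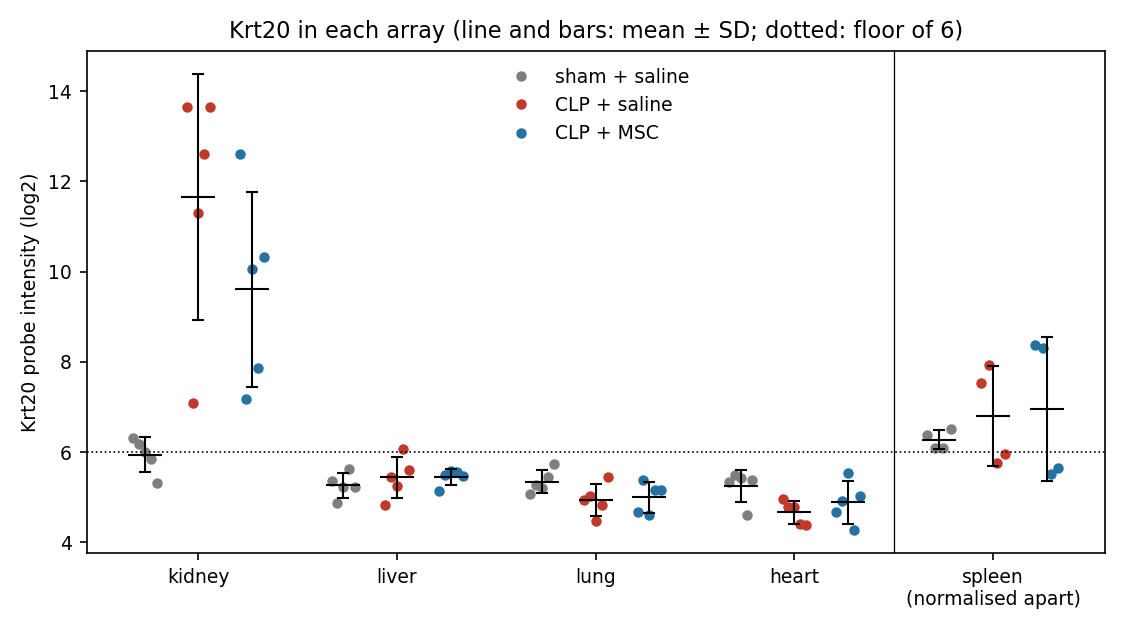
Krt20 probe intensity in log2 (y axis) for each array (points) by organ and arm, with the arm mean and SD as a line and bars and the floor of 6 log2 dotted. Injured kidneys run from 7.08 to 13.66 while 44 of the 45 liver, lung and heart arrays lie below the floor, and spleens, normalised apart, stand to the right of the vertical line.

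The CLP mean was 11.66 ± 2.73 log2 (SD, n = 5), and the MSC mean was 9.61 ± 2.16 (n = 5). Since the sham mean is below the floor, the distance of an arm mean from sham is a lower bound. With sham set at the floor, the arm mean was at least 50.4-fold higher in CLP kidneys and at least 12.2-fold higher in MSC kidneys. Single kidneys lay nearer the floor, such as 107C at 7.08 and 100M at 7.17 log2. These limits move with single animals. The CLP limit was 111-fold without 107C and 35.6-fold without 35C. The MSC limit was 7.24-fold without 16M and 18.6-fold without 100M. The measured differences were 5.72 log2 for CLP minus sham and 3.67 for MSC minus sham. MSC minus CLP was -2.05 log2 (standard error 1.56), a gap smaller than the SD within the CLP arm. Mouse 107C weighs on that gap: without it the CLP mean was 12.80 ± 1.12 (n = 4), and MSC minus CLP was -3.19 (standard error 1.12). The gap was smallest without 100M, at -1.44 (standard error 1.56).

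Among the 8817 header-following probes tested in the kidney, of which 20.4% rose (limma, adjusted p below 0.05), the measured difference between CLP and sham was 5.72 for Krt20. Its place among the others is not fixed, since its sham level is at background. Beside it stood Saa3, an acute phase serum amyloid (6.19), Fpr2, a formyl peptide receptor of phagocytes (4.88), Cxcl1, a neutrophil chemokine (4.69), and Havcr1 (4.59). In the second table, which covers all rows, Lcn2, the iron-carrier binding protein neutrophil gelatinase-associated lipocalin, had a measured difference of 6.42.

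In the spread between CLP kidneys Krt20 stood first. Its SD between the 5 CLP kidneys, 2.73 log2, ranked 1st of 8817 probes, whose median SD was 0.30. Havcr1 followed with 2.34, whereas Saa3 had 0.82 and Fpr2 0.55. In MSC kidneys the SD of 2.16 ranked 8th, and in sham kidneys the SD of 0.39 ranked 352nd. Without 107C the SD in CLP kidneys was 1.12 and ranked 25th, so the first place rests on that mouse. These ranks describe the values that chose the probe.

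**Figure D2:**
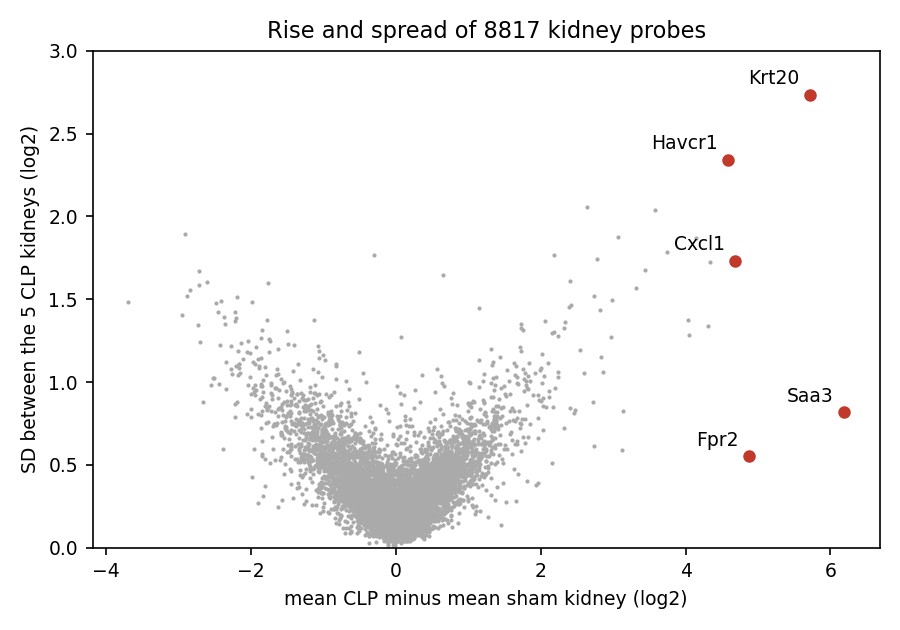
SD between the 5 CLP kidneys (y axis, log2) against the difference of CLP and sham means (x axis, log2) for 8817 probes (grey points). Krt20 combines a difference of 5.72 with the highest SD, 2.73, while Saa3 and Fpr2 rose about as far with SDs of 0.82 and 0.55.

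Across the other organs the probe gave little signal. Liver arrays read 4.84 to 6.06, lung arrays 4.47 to 5.74 and heart arrays 4.27 to 5.54, so that 44 of 45 arrays were below the floor. The 1 array above it was the CLP liver of mouse 37C. In order of arm means, injured kidneys led, sham kidneys (5.94) followed, and every liver, lung and heart arm lay between 4.67 and 5.45. Neighbouring arms in that lower range did not differ beyond their SDs of 0.18 to 0.47.

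Because the floor left the probe untested in these organs, their comparisons rest on the fit with no filter. Sham livers averaged 5.26 ± 0.27 (SD, n = 5), CLP livers 5.44 ± 0.45 and MSC livers 5.45 ± 0.18. CLP minus sham was 0.18 (standard error 0.20, limma adjusted p 0.690), where 15.7% of 22504 probes were called. In the lung, sham averaged 5.35 ± 0.26, CLP 4.94 ± 0.35 and MSC 4.99 ± 0.34, with CLP 0.41 log2 below sham, a change of -0.41 (standard error 0.18, limma adjusted p 0.208, 9.7% of probes called). In the heart, sham averaged 5.25 ± 0.36, CLP 4.67 ± 0.26 and MSC 4.89 ± 0.47, with a CLP minus sham difference of -0.58 (standard error 0.22, limma adjusted p 0.167, 4.62% called). MSC minus sham was 0.19, -0.35 and -0.36 in liver, lung and heart, where 6.14%, 2.54% and 0.653% of probes were called. None of the 9 contrasts in these organs passed. On their own exact two-sided permutation tests gave at lowest p = 0.0317, for CLP against sham in the heart (0.381 after adjustment over 12 comparisons, smallest possible p 0.00794). CLP minus sham spanned 0.76 log2 over liver, lung and heart. The organ by arm interaction did not pass either (limma adjusted p 0.179, 11.5% of probes called; 0.155 with the mouse as a block).

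The 4 organs came from the same mice, so the kidney level could be set against the level elsewhere in the 10 injured animals. Pearson's r was 0.51 with the liver (permutation p 0.137, 0.206 adjusted over 3 organs), -0.72 with the lung (permutation p 0.022, adjusted 0.0661) and 0.21 with the heart (permutation p 0.570, adjusted 0.570). Spearman's rho was 0.28, -0.79 and 0.21, with adjusted permutation p of 0.561, 0.0271 and 0.561. Without mice 107C and 100M, the 2 farthest from the median kidney level, r was 0.32 with the liver (permutation p 0.450), -0.59 with the lung (permutation p 0.125) and -0.45 with the heart (permutation p 0.260), where the sign turned. With the arm means taken out, r with the lung was -0.76 (permutation p 0.0287 before adjustment). The lung relation did not pass adjustment by Pearson's r and passed by Spearman's rho. Its kidney side holds the values that chose the probe, and all lung values concerned are under the floor. No relation between the organs is therefore concluded.

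Among the other transcripts of the injured kidney, Krt20 went with some and not with others. Over all 15 kidneys the probes most like it were Ywhah, a 14-3-3 adaptor protein (r = 0.99), Lmna, the nuclear lamin A/C (0.98), the unnamed probe ILMN_2712066 (0.98), Il34, a ligand of the CSF1 receptor (0.98), Litaf, an endosomal membrane protein (0.98), and Plin2, the coat protein of lipid droplets (0.98). Sham and injured kidneys form separate clusters, which raises r over all 15. Within the 10 injured kidneys r was 0.97, 0.97, 0.98, 0.98, 0.97 and 0.96 for the same probes. Here and below, r over the injured kidneys pools CLP and MSC mice, so a difference between those arms also enters it. Without 107C and 100M r lay between 0.94 and 0.97.

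Their levels put the animals in a similar, not identical, order (Spearman's rho with Krt20 over the injured kidneys 0.89 to 0.99). Il34 read at most 6.72 in sham kidneys, with a median of 6.66. In CLP kidneys it read 10.47 in 24C, 9.16 in 34C, 10.14 in 35C, 9.89 in 37C and 7.58 in 107C. In MSC kidneys it read 9.42 in 16M, 8.40 in 44M, 8.65 in 61M, 7.84 in 101M and 7.87 in 100M. As with Krt20, mouse 107C stood apart from its arm and mouse 16M led the MSC arm. Plin2 averaged 8.54 ± 0.29 log2 in sham (SD, n = 5), 12.28 ± 1.79 in CLP and 11.03 ± 1.53 in MSC kidneys, with 9.14 in 107C and 12.88 in 16M.

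The probes running most opposite to Krt20 belonged to 2 acyl-CoA dehydrogenase genes: Acad8, an enzyme of valine breakdown (r = -0.99 over 15 kidneys, -0.98 over the 10 injured), and Acad9, an assembly factor of respiratory complex I (-0.98 and -0.97). Acad8 read 8.59 to 8.75 in sham, 7.64 to 8.49 in CLP and 7.64 to 8.37 in MSC kidneys. Its highest injured value, 8.49, was that of 107C. These correlations carry no p, since the points share arrays, animals and normalisation and the probes were selected for them. Over the 10 injured kidneys 433 of 8817 probes reached r of 0.9 or more and 410 reached -0.9 or less, so such likeness was widespread.

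Over the 60 liver, lung, kidney and heart arrays, where most Krt20 values are at background, the order of likeness was led by Havcr1 (r = 0.97). Zic4, a zinc finger factor (0.92), Scgb2b27, a secretoglobin (0.88), Hpcal4, a neuronal calcium sensor (0.88), the unnamed ILMN_2595299 (0.87) and Nrg1, a ligand of ErbB receptors (0.87), followed. Within the 10 injured kidneys, Havcr1, Hpcal4 and Nrg1 kept r of 0.93, 0.92 and 0.93, while Zic4 stood at 0.77, Scgb2b27 at 0.64 and ILMN_2595299 at 0.50.

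Havcr1 read 5.73 to 7.25 in sham kidneys. In CLP kidneys it read 13.85 in 24C, 10.65 in 34C, 11.30 in 35C, 10.86 in 37C and 7.29 in 107C, and in MSC kidneys 12.26 in 16M, 9.10 in 44M, 10.90 in 61M, 8.25 in 101M and 7.27 in 100M. The 3 lowest injured animals by Krt20 (107C, 100M and 101M) were also the 3 lowest by Havcr1. They are the injured mice with label numbers of 100 or more, so the shared order cannot be told apart from that number series. Saa3 was different: it read 12.20 to 14.13 in CLP and 12.17 to 14.05 in MSC kidneys, and 107C, low in Krt20, held 13.78. Its r with Krt20 over the 10 injured kidneys was -0.02, against 0.93 for Havcr1.

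**Figure D3:**
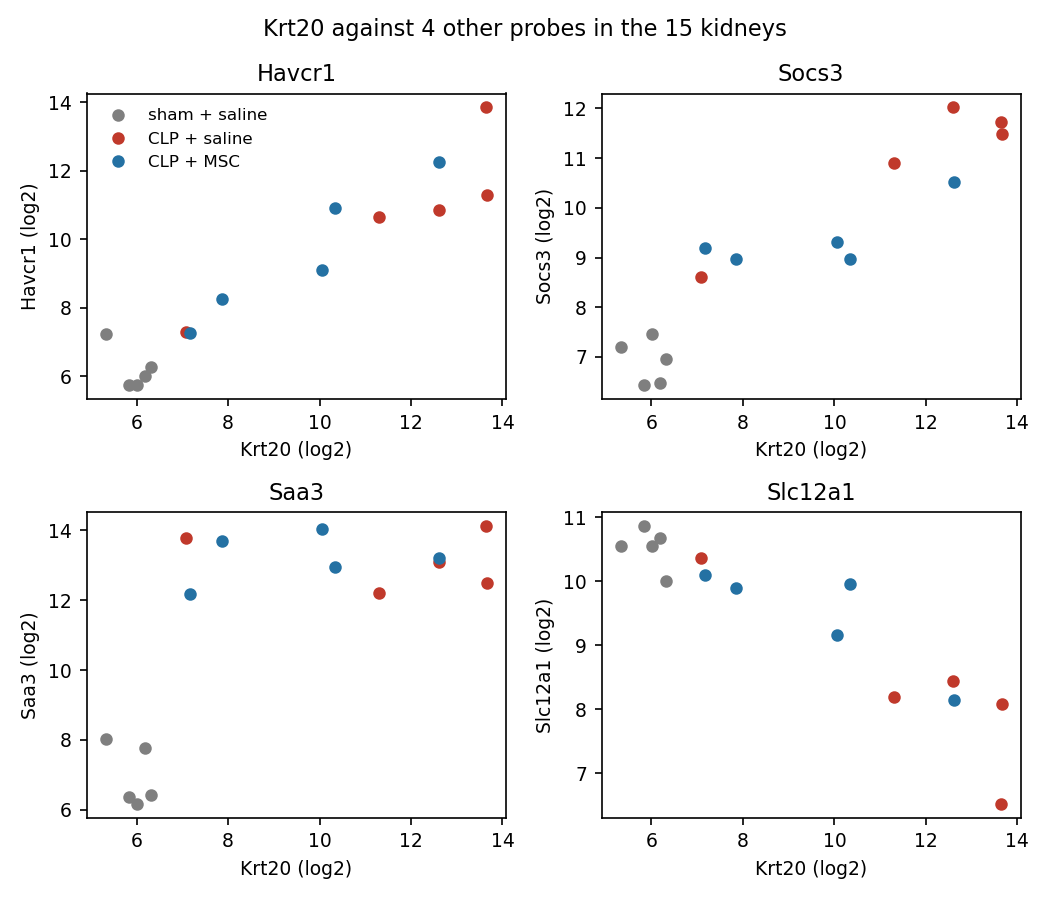
Krt20 (x axes, log2) against Havcr1, Socs3, Saa3 and Slc12a1 (y axes, log2) in the 15 kidneys, coloured by arm. Havcr1 and Socs3 climb with Krt20 among the injured kidneys (r = 0.93 and 0.89), Slc12a1 declines (r = -0.89), and Saa3 separates sham from injured kidneys with r = -0.02 among the injured.

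A list of kidney injury, acute phase and cytokine genes was measured in the second deposited table, since many rows are displaced in the first, and only differences are used here. Of its 29 probes 26 passed the floor, and 22 of them rose after CLP with none falling (limma, adjusted p below 0.05), where 16.9% of 20575 probes rose and 17.0% fell. The list was chosen with earlier results of these data known, and some genes are counted by several probes. Its share is therefore a description and no independent evidence. The median difference was 3.10 log2, against 0.02 over all probes tested. Lcn2 rose by 6.42 (standard error 0.50, limma adjusted p 2.61e-06), Havcr1 by 4.59 (0.99, limma adjusted p 0.0036) and Timp1, a metalloproteinase inhibitor, by 4.11 (0.31, limma adjusted p 2.61e-06).

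The order of r with Krt20 differed within this list. Over the injured kidneys it was 0.93 for Havcr1, 0.90 for both probes of Fga and 0.86 for Fgg, which encode fibrinogen chains, 0.89 for Socs3, a feedback inhibitor of cytokine signalling, and 0.74 for both Lcn2 and Cxcl1. It was 0.27 and 0.29 for Timp1, 0.36 and 0.34 for S100a8 and S100a9, the calprotectin subunits of neutrophils, and 0.10 to 0.19 for Hp, haptoglobin. Saa1, Saa2 and Orm1, acute phase proteins, lay between 0.20 and 0.48. Probes of Il6 (difference 0.16), Saa2 (0.78), Orm1 (1.30) and 1 of 2 Saa1 probes (1.01) did not pass. MSC kidneys were higher than sham kidneys at 13 of the 26 probes and lower at 0, against 2.67% and 2.71% of all probes. They differed from CLP kidneys at 0 of 26. Over all probes, MSC against CLP called 3 of 20575 by limma (0.0146%), and 5042 had an unadjusted p below 0.05.

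**Figure D4:**
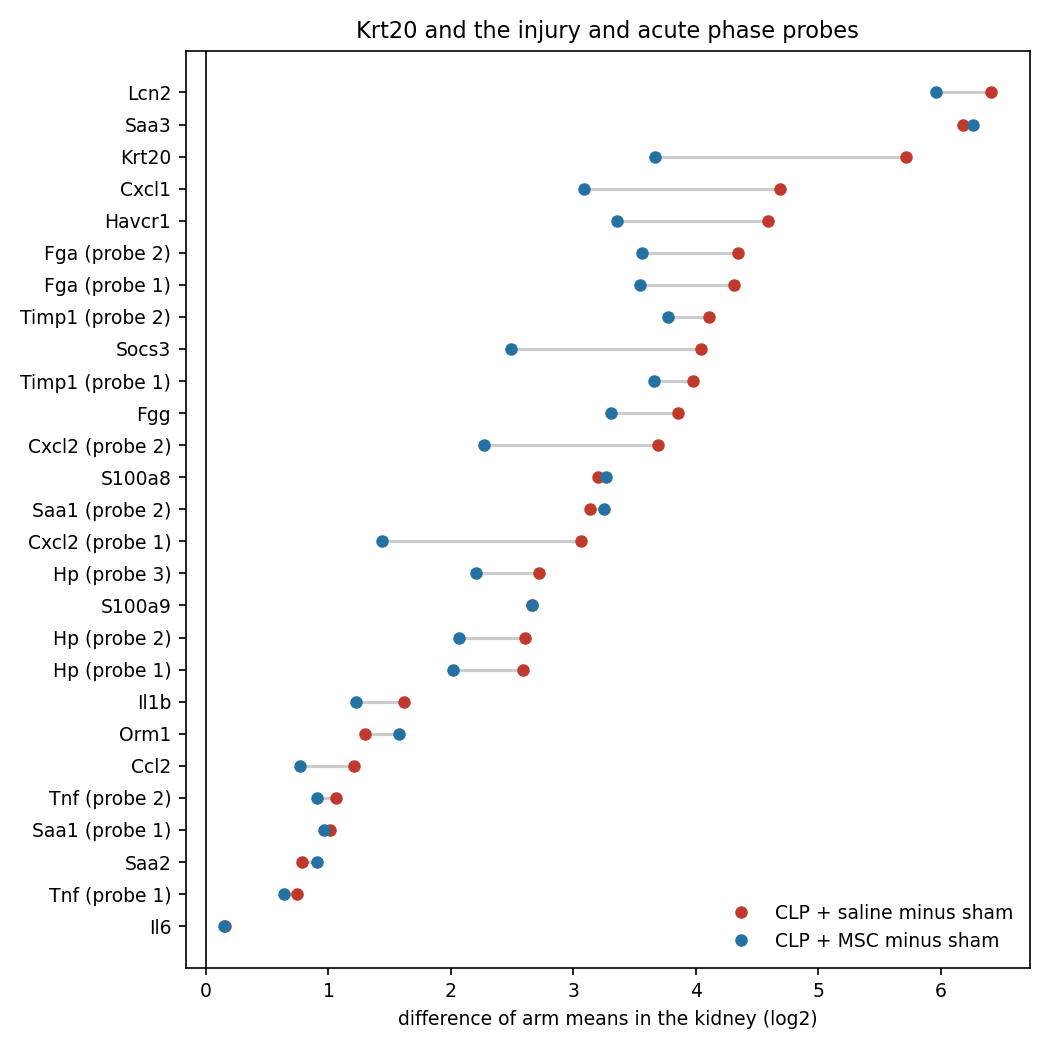
Difference of arm means from sham in the kidney (x axis, log2) for Krt20 and the 26 probes of the list that passed the floor, in CLP (red) and MSC (blue) mice. Lcn2, Saa3 and Krt20 stand at the top with 6.42, 6.19 and 5.72 after CLP, and Krt20 in MSC mice stands at 3.67.

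Kidney cell markers moved unequally beside Krt20. Of 6 probes for proximal tubule genes, 5 fell after CLP (limma), where 17% of 20575 probes fell, among them Slc34a1, the sodium phosphate cotransporter, by 1.74 (standard error 0.50, limma adjusted p 0.0149), and a megalin probe (Lrp2) by 0.99 (0.26, limma adjusted p 0.0097). All 6 probes of Slc12a1, the sodium, potassium and chloride cotransporter of the loop of Henle, fell, with differences from -0.92 to -2.22 log2, whereas neither Umod probe passed (differences 0.01 and 0.21). Umod reads near the top of the deposited range, whose highest value is 16.0, and whether this limits its differences was not tested. Over the injured kidneys the r of these Umod probes with Krt20 was -0.63 and -0.78. The Slc12a1 probe ILMN_2522254 had a median of 10.55 in sham kidneys and read 6.52 to 10.36 in CLP and 8.14 to 10.10 in MSC kidneys, and its highest CLP value was that of 107C. In tissue RNA, fewer cells of a type and less transcript per cell cannot be told apart. None of 3 collecting duct probes (Aqp2, Scnn1b) and not the 1 podocyte probe (Nphs1) passed.

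Markers of other cells were read in the same kidneys. All 3 neutrophil probes rose, against 16.9% of all probes: S100a8 by 3.20, S100a9 by 2.66 and Retnlg by 1.91 (limma adjusted p 0.000163, 0.0012 and 0.00167), with r to Krt20 of 0.34 to 0.52 over the injured kidneys. The S100a8 and S100a9 probes are those already counted in the injury list, so only Retnlg is added here. Of 5 macrophage probes 1 fell (Csf1r) and none rose, of 3 T cell probes 1 fell (Cd3g), of 2 hepatocyte probes 1 fell (Ttr), and neither the B cell probe nor the 2 red cell probes passed, where 17% of all probes fell. The 3 probes of Adgre1, a macrophage surface receptor, did not pass, and their r with Krt20 over the injured kidneys was -0.85, -0.84 and -0.90. Their MSC means lay above their CLP means by 0.84, 0.65 and 0.46, opposite to Krt20, so the gap between arms enters these r. None of 4 cardiomyocyte and none of 4 lung epithelium probes reached the floor. Since Krt20 also marks the lining of the urinary tract, uroplakins, its membrane proteins, were looked up after the values were seen and are given without a test. The 3 header-following uroplakin probes averaged 5.95 to 6.76 over sham, 5.68 to 6.15 over CLP and 4.98 to 5.62 over MSC kidneys. The 4 probes past the floor in the second table all had lower means in CLP than in sham kidneys, as had 9841 of all 20575 probes tested. Over the injured kidneys their r with Krt20 was 0.82 (Upk1a), 0.54 (Upk2), 0.47 (Upk1b) and 0.19 (Upk3a). The part of these cells in the Krt20 values was not tested.

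Other keratins did not share the size of the difference. This family was also gathered after the values were seen, without a test. Besides Krt20 the array holds 65 probes for 48 keratin genes, and 10 of these probes passed the floor in the kidney. CLP means were above sham means for 8 of the 10, with a median difference of 0.25 log2. Over all probes tested the same held for 10734 of 20575, with a median of 0.02, so with 10 probes no family-wide change is concluded. Krt8, the type II keratin of simple epithelia, differed by 1.03, its type I partner Krt18 by 0.78, Krt23 by 0.81 and Krt19 by 0.51, while Krt15 lay lower (-0.58) and Krt7 near 0 (0.05). Within the injured kidneys r with Krt20 was 0.94 for this Krt8 probe, 0.85 for Krt18 and 0.71 for Krt23. It was -0.87 for Krt15, -0.58 for Krt10, -0.56 for Krt14 and -0.37 for Krt7. The median r over the 10 probes was -0.03. Another Krt8 probe, not past the floor, had a difference of -0.06 and an r of 0.45. Krt12, which like Krt23 lies next to Krt20, was not past the floor, with differences of 1.44 and 1.28 at its 2 probes.

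In the spleen the arms gave no uniform picture. By the header, sham spleens read 6.38 (E), 6.10 (F), 6.09 (E2) and 6.52 (F2). CLP spleens read 7.54 (A), 7.94 (B), 5.77 (A2) and 5.96 (B2), and MSC spleens 8.37 (C), 8.31 (D), 5.52 (C2) and 5.64 (D2). Injured spleens labelled with a letter alone thus stood above every sham spleen, and those labelled with a letter and a 2 stood below every one. Sham spleens of both label sets lay together.

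Over all 12 spleens CLP minus sham was 0.53 (standard error 0.70, limma adjusted p 0.626) and MSC minus sham 0.69 (0.70, limma adjusted p 0.557), where 13.5% and 7.53% of 11048 probes were called. MSC minus CLP was 0.16 (0.70, limma adjusted p 0.9999), where no probe passed by limma and 428 had an unadjusted p below 0.05. With array weights MSC minus sham was 1.81 (0.40, limma adjusted p 0.00778, 20% of probes called). Within the letter-alone set, at 2 spleens per arm, CLP minus sham was 1.499 (0.21, limma adjusted p 0.082, 0.0453% called) and MSC minus sham 2.10 (0.21, limma adjusted p 0.0482, 0.172% called). Within the other set they were -0.44 (0.22, limma adjusted p 0.252, 5.49% called) and -0.72 (0.22, limma adjusted p 0.0807, 9.55% called). The differences from sham were set apart between the sets by 1.94 for CLP (limma adjusted p 0.225) and by 2.82 for MSC (limma adjusted p 0.0411, 3 of 11048 probes called). The set comparison was chosen because the values had been seen to part by label, so its p is no independent evidence. By the second table, which gives 2 spleens of the second set another arm, CLP minus sham was 0.64, MSC minus sham 0.91 and MSC minus CLP 0.27, with limma adjusted p from 0.627 to 0.997. No probe passed by limma in these 3 contrasts, and 2941, 730 and 957 of 21151 had an unadjusted p below 0.05. Saa3 read 6.59 to 8.03 in the header's sham spleens and 11.52 to 13.91 in its injured spleens. The 2 spleens that change arm are E2, sham by the header and MSC by the second table, and D2, the reverse. Saa3 read 7.46 in E2 and 12.63 in D2, so at this transcript both lay with the arms of the header.

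Acinar pancreas transcripts varied between the spleens and are given beside Krt20. The mean of 5 probes for the digestive enzymes Cela3b, Ctrb1 and Amy2a5, a list drawn up after the values were seen, was 14.7 to 15.3 log2 in the 4 injured spleens of the letter-alone set and 6.11 to 10.2 in the 4 injured spleens of the other set. Sham spleens read 10.3 and 15.4 in the first set and 12.1 and 15.5 in the second. The 2 sham spleens with the highest acinar means, F and F2, had Krt20 at 6.10 and 6.52, against 7.54 to 8.37 in the injured spleens with acinar means of 14.7 or more. In kidney arrays the same mean stayed between 5.79 and 6.44. The part of pancreas tissue in the spleen values was not tested.

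**Figure D5:**
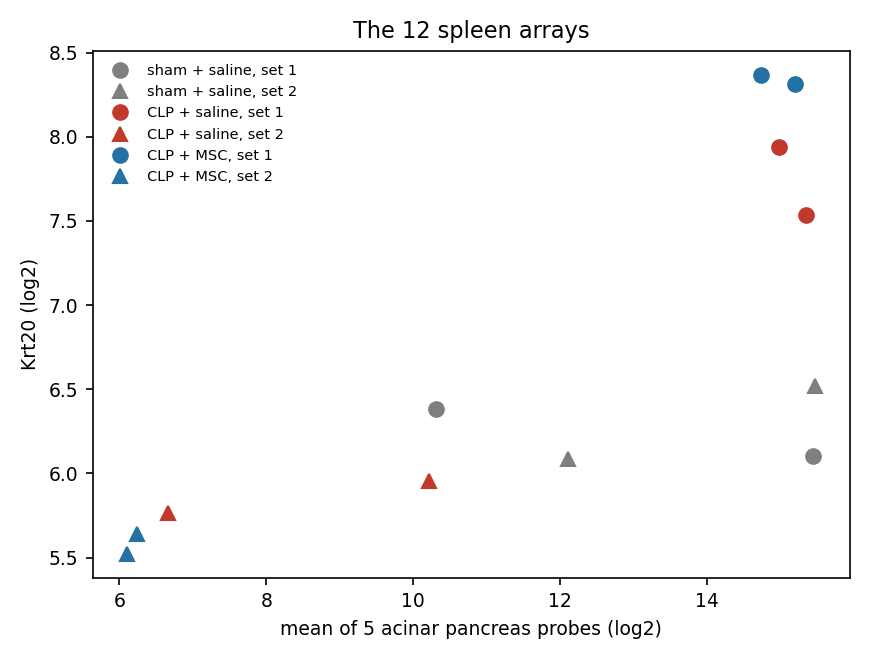
Krt20 (y axis, log2) against the mean of 5 acinar pancreas probes (x axis, log2) in the 12 spleens, coloured by arm, with circles for labels of a letter alone and triangles for a letter with a 2. The 4 injured spleens of the first set lie at the upper right, above the 2 sham spleens with acinar means of 15.4 and 15.5, and the 4 injured spleens of the second set lie lowest.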

How the data were processed

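The labels name Illumina arrays, Trizol extraction and biotinylated cRNA. The deposited log2 values (0.0144 to 16.0) are labelled non-normalised, but sorted values coincide within the 12 spleens and within the other 60 arrays, to 0.00352 log2 at most. They were used as they stand. The software behind them is not given in the sources used here. Of 45255 complete rows 22504 follow the header and 22751 are displaced by 12 columns, as the second deposited table of log2 values bears out within 0.001 log2. That table carries a shift for each probe, 0.28 log2 for Krt20, and served only for differences within an organ. Probes were named from the platform annotation. All 3 arms of each organ entered 1 limma model (version 3.58.1 under R 4.3.3), for probes above 6 log2 in at least 5 arrays (spleen 4), with Benjamini-Hochberg adjustment over all probes tested and a threshold of 0.05. Exact permutation tests used SciPy; correlations over mice used 100000 permutations. On simulated data limma recovered 95.5% (spleen) and 97.5% (kidney, second table) of changes of 2 log2. At 1 log2 it recovered 68.5% (spleen), 78.0% (kidney, second table), 64.5% (liver), 89.5% (lung) and 69.0% (heart), the last 3 with no filter. Smaller changes were not simulated. The changed probes were drawn at random and kept their own spread. Krt20 had a standard error of 0.70 in the spleen, so these rates do not carry over to it there. The named genes were Krt20, its neighbours in rank of the kidney difference, the probes most and least like it, and fixed lists of injury genes and of cell markers. These members and lists were chosen with earlier results of these data known. Of the spleen columns 1, labelled B, was matched to its arm only. The labels do not say that the spleens came from separate mice, and p-values measure the spread between samples. Few arrays bound the precision. Mouse numbers come from the labels and link organs of the same animal; spleen title numbers share only a number.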

Additional observations from a re-analysis of the deposited data

Results flagged for a closer look

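In the MSC livers mouse 101M read 5.14 log2, away from the other 4, and in the sham hearts mouse 22S read 4.62, away from the other 4. Both values are under the floor of 6 log2, and such a gap appears in about 1 in 20 groups by chance; 15 groups were looked at.

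In the spleen the difference of MSC and sham was 2.82 log2 higher in spleens whose labels have a lone letter than in those with a letter and a 2 (limma adjusted p 0.0411, 2 spleens per arm in each set). The comparison of the sets was made because the values had been seen to part by label, so this p is no independent evidence. All 4 MSC spleens followed their set, 8.37 and 8.31 against 5.52 and 5.64.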

How the results depend on the processing

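Of 272 values recomputed under alternatives, 262 kept their direction and their side of the threshold, or for untested values stayed within 1 SD. This count does not measure robustness, since many values could not have counted as changed. A difference does not move when an array of the arm outside it is left out. In liver, lung and heart, exact tests and the interaction were counted as kept whatever their p. A turned sign within 1 SD was also counted as kept there, as for MSC minus CLP in the liver (-0.14 to 0.17 leaving out 1 array). In the spleen MSC minus sham passed with array weights (1.81) and in label set 1 (2.10). In label set 2 the signs turned: -0.44 for CLP minus sham, -0.28 for MSC minus CLP and -0.72 for MSC minus sham. The cause was not tested. With the title number as a replicate block the spleen differences for CLP minus sham, MSC minus CLP and MSC minus sham were 0.48, 0.19 and 0.67 (limma adjusted p 0.684, 0.999 and 0.589), and no call changed. With the mouse as a replicate block the organ by arm interaction had an adjusted p of 0.155. The kidney to heart correlation was -0.45 without mice 107C and 100M.

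Leaving out 1 array, spleen differences ran from 0.15 to 0.87 (CLP minus sham), -0.31 to 0.64 (MSC minus CLP, below 0 without CLP3, CLP10, MSC4 or MSC7) and 0.22 to 1.17 (MSC minus sham). Kidney means ran from 5.84 to 6.09 in sham, 11.2 to 12.8 in CLP and 8.86 to 10.2 in MSC mice. In liver, lung and heart a floor of 7, array weights, 2 arms and trend settings left the probe untested. Signals under the floor of 6 log2 set the limit there.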

Other observations

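Over the 12 spleens, regenerating islet family transcripts were among the header-following probes most like Krt20, as seen after the values were ranked. These genes, Reg3a, Reg2 and Reg3b, encode small secreted C-type lectins known from the gut and from the acinar pancreas under stress. Their r with Krt20 was 0.95, 0.91 and 0.91, ranking 2nd, 4th and 6th of 11048 probes. The points share arrays and differ together in acinar probes, so no p is given.

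Reg3a read 13.97 and 15.15 in CLP spleens A and B and 14.02 and 14.60 in MSC spleens C and D. It read 8.05 and 8.08 in sham spleens F and F2, which had acinar means as high as those 4. In the other 6 spleens, 2 of each arm, it lay between 4.06 and 6.70. Reg2 read 15.35 to 15.61 in A, B, C and D, 10.36 and 11.10 in F and F2, and 4.43 to 8.54 in the other 6.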
